A study of Mus musculus with 3 samples.

Results

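The Reg genes encode small secreted proteins with a C-type lectin fold, named after regenerating pancreatic islets. They were followed here in whole proximal jejunum, the upper small intestine after the duodenum, of mice lacking the transcription factor Sox4 in the intestinal epithelium. The members were the 7 family genes Reg1, Reg2, Reg3a, Reg3b, Reg3d, Reg3g and Reg4, found by symbol in the array annotation among 20738 named genes, and each was measured by 1 array feature. Each of 3 Agilent arrays with 2 colours held RNA of 1 mouse labelled as a Sox4 knockout made with villin-Cre, a recombinase active in the epithelium but not in the muscle, stroma, nerve or blood cells of the gut wall. Wild-type proximal jejunum was the other channel. The labels used here do not give age, sex or strain, nor whether the wild-type RNA came from single mice or a pool. The members were selected on their family name and on the gene means of knockout against wild type on each array, which are the values described here. Values are log2 ratios that set the knockout above the wild type, a ratio of 1 stands for a doubling, and errors are SDs of the 3 arrays (n = 3). The log base and the direction were not stated by the authors. Base 2 was assumed, and the direction follows the dyes in the labels. With the inverse ratio every sign would be the opposite, and under the natural logarithm every fold would be larger.

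The family divides by function. Reg3g binds peptidoglycan and kills Gram-positive bacteria at the epithelial surface, and Reg3b acts mainly on Gram-negative bacteria. Both are made by enterocytes and Paneth cells, and in the gut both are induced by microbes through Myd88 and through interleukin 22 and STAT3. Reg1 and Reg2 are secreted by pancreatic acinar cells and by the small intestine and are known for growth and repair. Reg3a and Reg3d are further relatives of the Reg3 branch, and Reg4 is a marker of secretory cells of the gut epithelium, among them enteroendocrine cells. All genes of the family but Reg4, 6 in number, lie together on chromosome 6, in the order Reg3b, Reg3d, Reg3a, Reg2, Reg1 and Reg3g, while Reg4 lies on chromosome 3.

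The upstream sequences of 4 members are given because these genes span the patterns described below. Reg3b and Reg3g had by far the highest ratios of the family on arrays 1 and 3 and their own lowest on array 2. Reg3a was likewise lowest on array 2, and Reg4 was highest there. Each is the stretch of 250 bases before the start site that the RefSeq promoter table of mouse build GRCm38.p6 uses, 5′ to 3′ on the gene's strand. In the RefSeq gene table Reg4 begins at 98222138, within the last bases of its window, while the other 3 windows end just before the gene. Capitals mark the letters TTCNNNGAA (a STAT motif), TATAAA (the TATA box), CACCTG (an E-box) and AACAAAG (a Sox motif) on either strand.
Reg3b (chr6:78370635-78370884, plus strand): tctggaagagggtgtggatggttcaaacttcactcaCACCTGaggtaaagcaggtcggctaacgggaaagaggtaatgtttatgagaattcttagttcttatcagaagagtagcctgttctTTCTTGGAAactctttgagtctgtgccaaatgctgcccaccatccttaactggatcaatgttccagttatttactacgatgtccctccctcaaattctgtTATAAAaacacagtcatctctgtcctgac
Reg3g (chr6:78468875-78469124, minus strand): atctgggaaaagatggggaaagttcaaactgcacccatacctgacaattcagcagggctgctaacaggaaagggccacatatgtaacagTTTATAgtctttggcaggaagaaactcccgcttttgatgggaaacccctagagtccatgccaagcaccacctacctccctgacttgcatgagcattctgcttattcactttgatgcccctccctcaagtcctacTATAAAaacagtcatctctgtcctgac
Reg3a (chr6:78380459-78380708, plus strand): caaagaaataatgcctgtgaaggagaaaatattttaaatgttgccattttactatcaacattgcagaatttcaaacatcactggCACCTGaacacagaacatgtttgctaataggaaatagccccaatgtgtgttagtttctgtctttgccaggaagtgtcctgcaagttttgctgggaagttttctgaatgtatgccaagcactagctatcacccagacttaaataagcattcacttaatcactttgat
Reg4 (chr3:98221906-98222155, plus strand): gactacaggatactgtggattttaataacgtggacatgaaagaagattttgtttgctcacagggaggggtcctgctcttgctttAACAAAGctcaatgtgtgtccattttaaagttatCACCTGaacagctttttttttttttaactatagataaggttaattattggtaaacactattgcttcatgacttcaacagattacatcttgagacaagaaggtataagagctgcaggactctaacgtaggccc

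Between Reg3b and Reg3g, 68.9% of aligned positions upstream were identical, with a longest shared run of 20 bases. The other pairs of the family ranged from 47.8% to 58.5%, with shared runs of at most 12 bases. A TATAAA began 29 bases before the start site in Reg3b, 27 before it in Reg3g and 30 before it in Reg1 and Reg2, and Reg3g held another on the opposite strand 161 bases before it. It was found in these 4 members and in 12.4% of the 32851 promoter windows of the same length. TTCNNNGAA was found in Reg3b and Reg3d and in 7.02% of all windows, and CACCTG in Reg2, Reg3a, Reg3b, Reg3d and Reg4 and in 17.2%. AACAAAG was found in Reg4 and in 5.03% of windows, and a shorter Sox motif, AACAAT, in no member and in 9.42%. None of the motifs overlapped another in these windows, and a match describes the letters and not binding.

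Reg3g had ratios of 4.74, 0.56 and 4.83 on arrays 1, 2 and 3. Wild-type jejunum was thus exceeded 26.6-fold, 1.47-fold and 28.5-fold, and the mean was 3.38 ± 2.44. Among all genes Reg3g was the highest of array 1 and the second highest of array 3, but it held place 2006 from the top on array 2. Reg3b had ratios of 4.36, -0.33 and 4.91 on arrays 1, 2 and 3, with a mean of 2.98 ± 2.88. It was 20.5-fold and 30.1-fold above wild type on arrays 1 and 3 and 1.26-fold below it on array 2. Reg3b was the second highest gene of array 1 and the highest of array 3. The 2 bactericidal lectins thus headed the ratios of 2 knockout mice and stood near wild type in the mouse of array 2. Within arrays they stayed close to each other, with Reg3g above Reg3b by 0.38 on array 1 and 0.89 on array 2 and below it by 0.08 on array 3. The probe sequences were not analysed here, so RNA of one gene binding to the feature of its relative cannot be told apart from a ratio of its own.

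**Figure D1:**
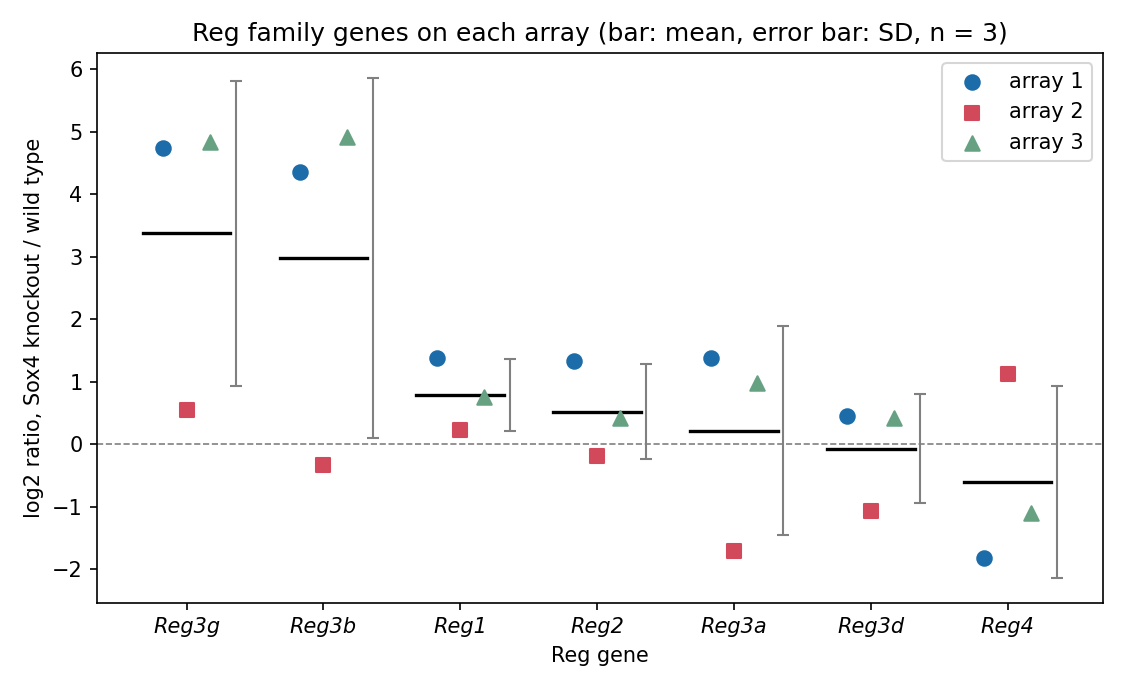
Log2 ratio of Sox4 knockout over wild type (vertical axis) for each Reg gene (horizontal axis), with 1 point per array, a bar at the mean and an error bar of 1 SD, n = 3. Reg3g and Reg3b lie between 4.36 and 4.91 on arrays 1 and 3 and at 0.56 and -0.33 on array 2, and Reg4 is highest on array 2.

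The other members of the Reg3 branch also had their lowest ratio on array 2, with smaller ratios on the others. Reg3a, a pancreatic and intestinal lectin, had ratios of 1.38, -1.70 and 0.98 on arrays 1, 2 and 3, with a mean of 0.22 ± 1.68. Its mean near 0 hides ratios that were 2.6-fold above wild type on array 1 and 3.26-fold below it on array 2. Reg3d, a relative of the islet neogenesis protein INGAP, had ratios of 0.45, -1.07 and 0.41 and a mean of -0.07 ± 0.86. Both genes were above wild type on arrays 1 and 3 and below it on array 2, as Reg3b was. Reg3g differed in that it was above 0 on array 2 as well. In the deposited ratios Reg3g exceeded Reg3a by 3.36, 2.26 and 3.86 on arrays 1, 2 and 3, a mean difference of 3.16 ± 0.82. This difference was the same in sign on every array, and its SD was smaller than that of either gene.

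Reg1, also called pancreatic stone protein, was above wild type on all 3 arrays, with ratios of 1.38, 0.23 and 0.76 and a mean of 0.79 ± 0.58. Its SD was the smallest of the family. Reg2, its neighbour on the chromosome and a closely related acinar protein, had ratios of 1.34, -0.18 and 0.41 and a mean of 0.52 ± 0.76. Reg1 lay above Reg2 on every array, by 0.05, 0.41 and 0.34, a mean difference of 0.27 ± 0.19. Both were highest on array 1 and lowest on array 2.

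For Reg4 the ratios were -1.82, 1.12 and -1.10 on arrays 1, 2 and 3, with a mean of -0.60 ± 1.53. It was 3.54-fold and 2.14-fold below wild type on arrays 1 and 3 and 2.18-fold above it on array 2. Reg4 was the lowest member on arrays 1 and 3 and the highest on array 2. Counted from the lowest of all genes it held place 89 on array 1 and place 338 on array 3, and from the highest it held place 278 on array 2.

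By mean ratio the order was Reg3g, Reg3b, Reg1, Reg2, Reg3a, Reg3d and Reg4. Of the 6 pairs of neighbours in this order, Reg1 and Reg2 were the 1 pair with a mean difference larger than its SD and the same sign on every array. Reg3g and Reg3b differed by 0.40 ± 0.48, Reg3b and Reg1 by 2.19 ± 2.45, and Reg2 and Reg3a by 0.31 ± 1.09. Reg3a and Reg3d differed by 0.29 ± 0.82, and Reg3d and Reg4 by 0.53 ± 2.39. These pairs did not differ beyond their spread.

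On arrays 1, 2 and 3 the family median was 1.38, -0.18 and 0.76, where the medians of all genes were -0.03, -0.03 and -0.00. All members but Reg4 were above 0 on arrays 1 and 3, and 3 of 7 were above 0 on array 2. A ratio above 1 was found for 5 members on array 1, 1 on array 2 and 2 on array 3, where 1.12%, 2% and 1.11% of all genes had one. All 6 genes of the chromosome 6 cluster were lower on array 2 than on both other arrays, and so were 37.8% of all genes. Reg4 was higher on array 2 than on both others, as were 33.9% of all genes. The SD over arrays ran from 0.58 to 2.88 in the family, and the median SD of all genes was 0.22. An SD of at least the smallest in the family was found for 7.13% of all genes.

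**Figure D2:**
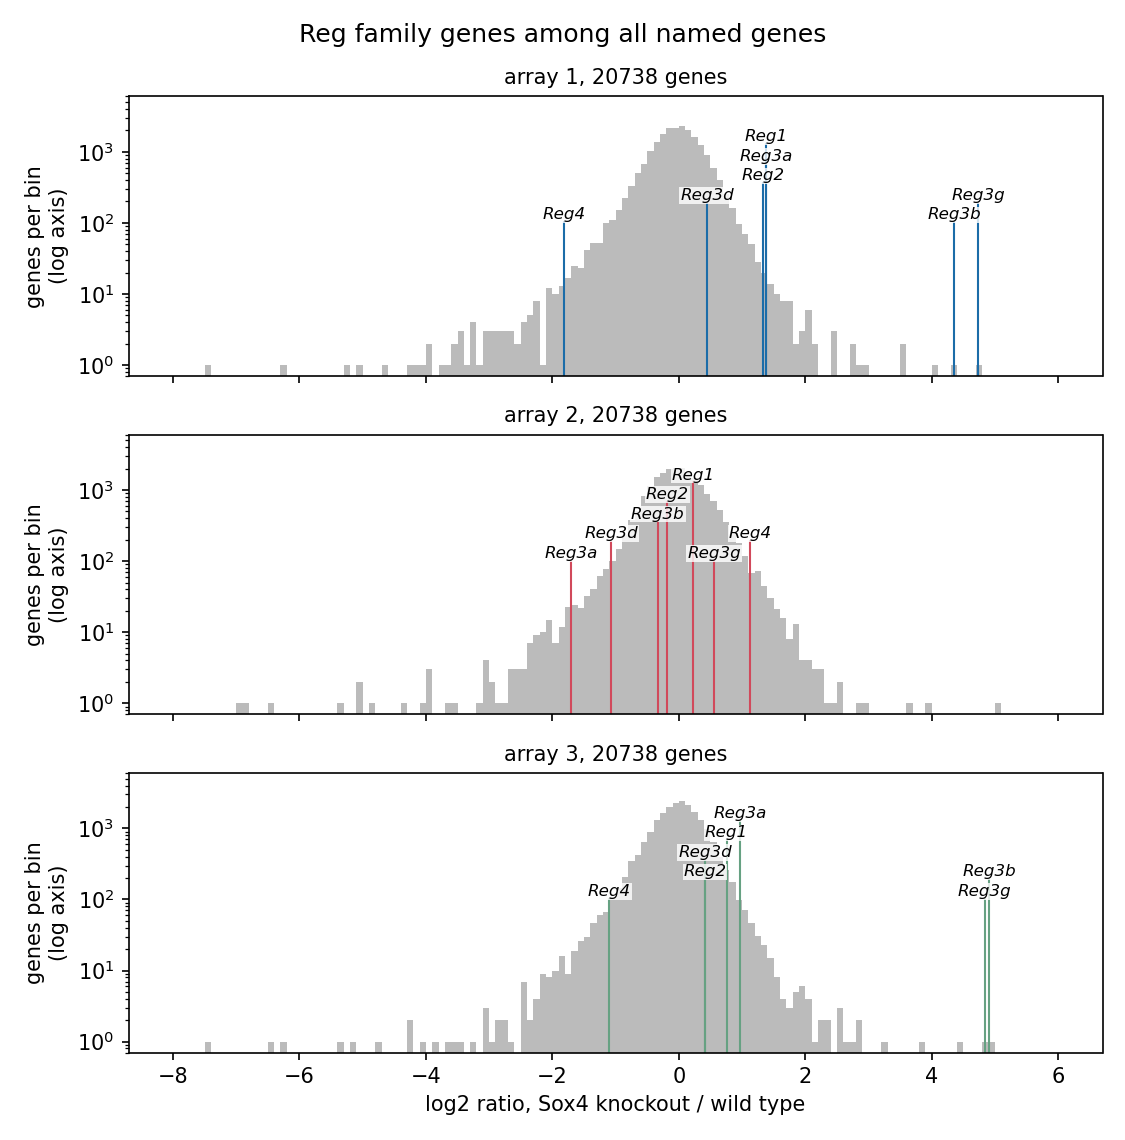
Histograms of the log2 ratio of knockout over wild type (horizontal axis) for 20738 genes, with genes per bin on a log axis (vertical axis), 1 panel per array, and coloured lines at the Reg genes. Reg3b and Reg3g are the 2 highest genes on arrays 1 and 3 and lie within the bulk of genes on array 2.

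The members were proposed with these ratios known, so their values are descriptions and no test supports them. By limma's moderated test across all genes, with Benjamini-Hochberg adjusted p-values and a threshold of 0.05, none of the 7 members passed, and 0.328% of all genes did. An unadjusted p under 0.05 was found for Reg1, Reg3b and Reg3g, and for 26.3% of all genes. With robust variance moderation also none of the members passed. The call depended on array 2. Without it Reg3b, with a mean of 4.63, and Reg3g, with a mean of 4.78, passed, as did 0.318% of all genes. Without array 1 or without array 3 no member passed, and the means were 2.29 and 2.01 for Reg3b and 2.69 and 2.65 for Reg3g. Leaving out 1 array also turned the sign of other means. Reg3a had means of -0.36 without array 1, 1.18 without array 2 and -0.16 without array 3, Reg3d had -0.33, 0.43 and -0.31, and Reg4 had 0.01, -1.46 and -0.35.

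The labels of the arrays could be checked only in part. Sox4 itself had ratios of -0.66, 0.18 and -0.46 on arrays 1, 2 and 3, and its 3 features disagreed, so array 2, on which most Reg genes stood apart, is also the array on which Sox4 was not below wild type. One Sox4 feature was below wild type on all arrays, at -1.21, -0.72 and -0.93. Genes linked to sex chromosomes also differed (Eif2s3y at -7.44, -6.99 and -7.40, Xist at 1.77, 1.85 and 1.51), so an effect of sex cannot be told apart from one of genotype in any Reg gene. Arrays 1 and 3 correlated at 0.57 over all genes, and array 2 at 0.43 and 0.41 with them, so no array ran in the opposite direction. No dye swap was among the samples, and presence of the tissue's markers could not be checked because only ratios were used here. In whole tissue, fewer cells of a type and less RNA per cell cannot be told apart.

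The genes nearest to Reg3g and Reg3b were sought by the Euclidean distance between ratios over the 3 arrays. Reg3b and Reg3g were at a distance of 0.97 from each other, nearer than any gene outside the family. For Reg3g these were B3galt5 (2.41), the organic anion transporter gene Slc22a7 (3.28) and the serum amyloid gene Saa2 (3.37), and for Reg3b they were B3galt5 (2.43), Saa2 (2.98) and Cpn2 (3.26). B3galt5, a galactosyltransferase gene, had ratios of 3.53, 0.41 and 2.75 on arrays 1, 2 and 3. Saa2, an acute phase gene also made by the gut epithelium, had 1.43, -0.00 and 4.49, and Cpn2, a carboxypeptidase subunit gene, had 2.81, 0.02 and 2.06. These 3 were high on arrays 1 and 3 and near 0 on array 2. Slc22a7 was high on every array, at 4.04, 3.61 and 3.85, and did not follow the difference of array 2.

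**Figure D3:**
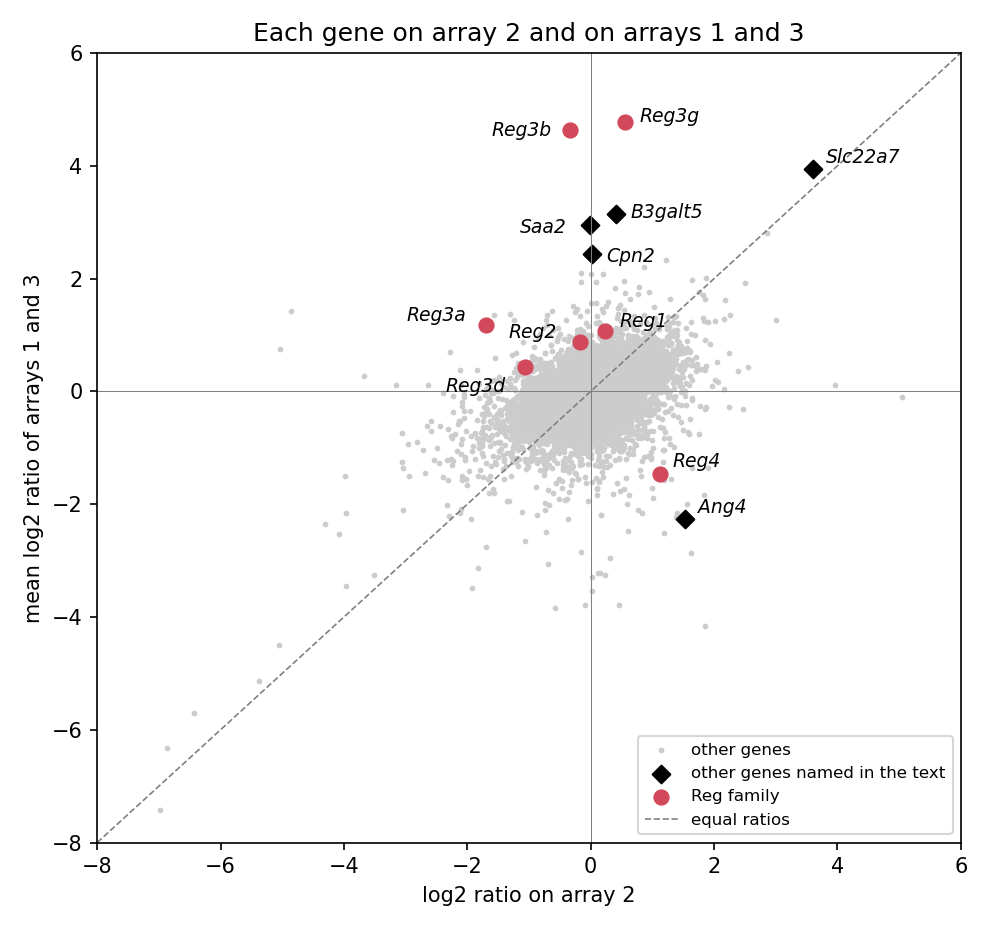
Log2 ratio on array 2 (horizontal axis) against the mean of arrays 1 and 3 (vertical axis) for each gene, with Reg genes in red, other genes named in the text as black diamonds and the line of equal ratios dashed. Reg3b and Reg3g stand at 4.63 and 4.78 on the vertical axis and near 0 on the horizontal one, and Reg4 lies on the other side of the line.

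Among genes around the known signals for Reg3 induction, 7 of 24 listed with STAT3 were lower on array 2 than on both other arrays, against 37.8% of all genes. Higher there than on both others were 10 of 24, against 33.9% of all genes. Of these 24 cytokine, receptor and kinase genes, none passed limma's test over all genes, while an unadjusted p under 0.05 was found for 1 with a mean above 0 and 6 with a mean below it. Together these are 7 of 24, close to the 26.3% of all genes. The unadjusted counts of the lists that follow have the same background of 26.3%. The list's medians were 0.05, -0.05 and 0.01 on arrays 1, 2 and 3. Il22, the cytokine, had ratios of 0.53, -0.02 and 0.03, its receptor gene Il22ra1 had 0.09, 0.23 and -0.02, and Stat3 had 0.03, -0.14 and -1.01. Socs3, a STAT3 target that feeds back on it, had 0.34, -0.36 and 0.44, the same signs as Reg3b at a far smaller size. Il6, another cytokine acting on STAT3, had -2.02, -0.69 and -1.49 (mean -1.40 ± 0.67, limma adjusted p = 0.0692). Il22, Il22ra1, Stat3 and Socs3 were chosen after their values were seen. Of 23 genes sensing microbes, such as Toll-like receptors, none passed, and 6 in each direction had an unadjusted p under 0.05. On array 2, 13 of 23 were lower and 5 of 23 higher than on both other arrays, against 37.8% and 33.9% of all genes. Their medians were 0.05, -0.02 and 0.18 on arrays 1, 2 and 3. Of the 23, 9 were above 0 and 6 below 0 on every array. Tlr1 (0.95 ± 0.07, limma adjusted p = 0.0541) and the inflammasome gene Nlrp6 (0.73 ± 0.11, limma adjusted p = 0.064) were above 0 on every array. Chuk was below 0 on every array, at -0.70, -0.73 and -0.45 (limma adjusted p = 0.074). The adaptor gene Myd88, chosen after its value was seen, had ratios of 0.32, 0.32 and 0.40, alike on all arrays.

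Among 22 genes of the epithelial response to bacteria or interleukin 22, none passed, and 6 above and 3 below 0 had an unadjusted p under 0.05. Their medians were 0.54, 0.38 and 0.05 on arrays 1, 2 and 3. Of the 22 genes, 6 were above 0 and 3 below 0 on every array. The 4 with the smallest p were all above 0 on every array, and a ranking by this p favours genes of the same sign throughout. Fcgbp had ratios of 0.647, 1.553 and 0.894, Tgm2 had 0.706, 0.507 and 0.506, Fut2 had 0.925, 1.61 and 0.466, and Nos2 had 0.92, 0.55 and 2.558. Serum amyloid genes had their lowest ratio on array 2, as Reg3b did, with Saa1 at 0.89, 0.20 and 3.26 and Saa3 at 0.56, -0.63 and 2.31. In both, as in Saa2, array 3 stood far above array 1, whereas in Reg3g arrays 1 and 3 were alike. Lcn2, the iron-binding lipocalin, had 0.54, -0.44 and 0.36. Other genes of the same list were highest on array 2, as Reg4 was. Duox2, the oxidase of the epithelial surface, had -0.49, 2.24 and -0.08, its partner Duoxa2 had -2.34, 1.01 and -1.45, and Retnlb, a resistin-like protein of goblet cells, had -3.24, 0.99 and -0.18. Of the list, 8 of 22 were lower and 10 of 22 higher on array 2 than on both others, against 37.8% and 33.9% of all genes. The genes of this paragraph were chosen after their values were seen, apart from Saa2, Fcgbp, Tgm2, Fut2 and Nos2.

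Of 18 other antibacterial proteins measured, 2 rose and none fell, where 0.328% of all genes passed. Lypd8, which coats flagellated bacteria, rose by 1.52 ± 0.27 (ratios 1.46, 1.29 and 1.82, limma adjusted p = 0.0408), and the peptidoglycan binding protein gene Pglyrp1 rose by 1.26 ± 0.25 (1.18, 1.54 and 1.06, limma adjusted p = 0.0496). On array 2, 7 of the 18 were lower and 9 higher than on both others, against 37.8% and 33.9% of all genes. Lypd8 and Pglyrp1 were of similar size on all 3 arrays, which selection by a test of the mean over these arrays favours. Neither passed without array 1, 2 or 3, with adjusted p from 0.0569 to 0.234, and Lypd8 had an adjusted p of 0.051 with arrays scaled to equal spread.

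**Figure D4:**
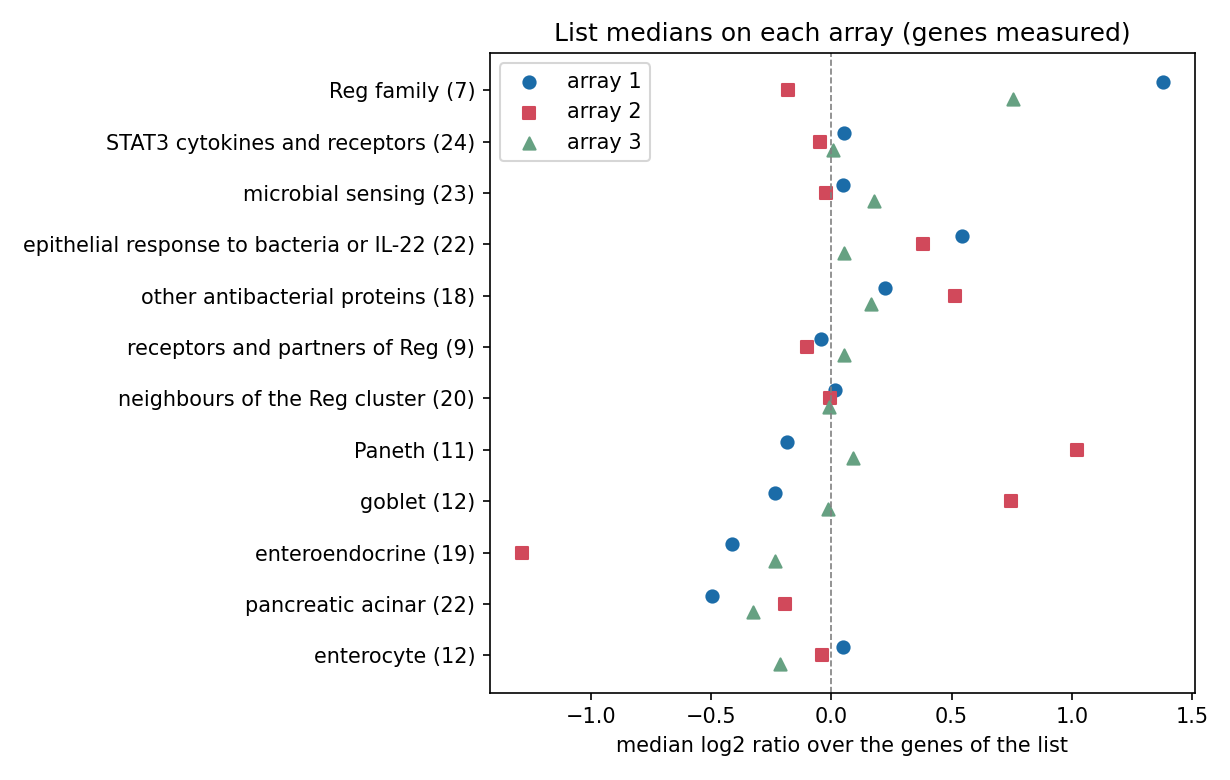
Median log2 ratio over the genes of each list (horizontal axis) on each array, with the number of genes measured in brackets (vertical axis). The Reg family is lowest on array 2 at -0.18, and the Paneth and goblet lists are highest on array 2 at 1.02 and 0.75.

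Markers of the cells that make Reg proteins moved with the arrays in other ways. Of 11 Paneth cell markers none passed, and an unadjusted p under 0.05 was found for 1, above 0. On array 2, 8 of 11 were higher than on both other arrays, where 33.9% of all genes were, with medians of -0.18, 1.02 and 0.09. Of 12 goblet cell markers none passed, 1 in each direction had an unadjusted p under 0.05, and 10 of 12 were highest on array 2, against the same 33.9%, with medians of -0.24, 0.75 and -0.01. The medians of these lists had the order of arrays seen in Reg4, as did Ang4, an antibacterial ribonuclease of Paneth cells chosen after its value was seen, at -3.36, 1.53 and -1.17. Of the 11 Paneth cell markers, 2 were lower on array 2 than on both others. One of them, the defensin gene Defa21, also chosen after its value was seen, had 1.62, -4.86 and 1.25. The part of these cell types in the Reg4 ratios was not tested. Enteroendocrine markers, in which Reg4 is also known, differed in the place of array 2. Of these, 17 of 19 were lower there than on both other arrays, where 37.8% of all genes were. Their medians were -0.41, -1.29 and -0.23, with array 1 below array 3 as in Reg4. An unadjusted p under 0.05 was found for 2 above and 9 below 0, and 2 were above 0 and 11 below 0 on every array. In that list 5 genes fell, where 0.328% of all genes passed in either direction. They were the hormone genes Gcg (-5.21 ± 0.14, limma adjusted p = 0.000281), Nts (-6.51 ± 0.32, limma adjusted p = 0.000281), Cck and Pyy and the granule protein gene Scg2. Gcg and Nts passed with any 1 array left out, Cck passed without array 2 only, and Pyy and Scg2 passed in none of these fits, so that 2 genes passed without array 1, 3 without array 2 and 2 without array 3. With equal spread Pyy and Scg2 were at a limma adjusted p of 0.0507. Reg4 was above wild type on the array where most enteroendocrine markers were lowest, and the part of enteroendocrine cells in its ratios was not tested.

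Of 22 markers of pancreatic acinar cells, which secrete Reg1, Reg2 and several Reg3 proteins, none passed, 2 above and 6 below 0 had an unadjusted p under 0.05, and 10 were below 0 and 3 above 0 on every array. The medians were -0.50, -0.19 and -0.32, and the means ran from -1.72 to 0.61, the highest being that of Gp2, a zymogen granule protein gene chosen after its value was seen. The lipase gene Pnlip had -1.62, -0.76 and -1.34, and the carboxypeptidase gene Cpb1, chosen after its value was seen, had -0.67, -0.50 and -0.35. Lower on array 2 than on both others were 7 of 22, and higher there were 9, against 37.8% and 33.9% of all genes. Among the higher ones Clps had -1.66, 1.91 and -1.05, and among the lower ones Ctrb1 had 0.58, 0.08 and 0.56. Clps and Ctrb1 were picked with their values known. Reg1, Reg2 and Reg3a stood above wild type on arrays 1 and 3, on which the median of the acinar markers was below 0. Of 12 enterocyte markers none passed, with medians of 0.05, -0.04 and -0.21, and 2 with an unadjusted p under 0.05 were both above 0. Of 9 markers of the villus tip none passed, 1 above and 3 below 0 had an unadjusted p under 0.05, and the medians were -0.15, -0.28 and -0.57. Of the other cell types in whole jejunum, all 6 smooth muscle markers were higher on array 2 than on both others, against 33.9% of all genes, with medians of -0.54, 0.35 and -0.47. Of 9 T cell markers none passed, but 7 had an unadjusted p under 0.05 with a mean below 0, against the 26.3% of all genes in either direction, and the medians were -0.42, -0.61 and -0.53. Of 9 markers of the lymphoid cells that secrete interleukin 22 none passed, 1 in each direction had an unadjusted p under 0.05, and the medians were 0.32, -0.02 and 0.03. Of 9 macrophage and neutrophil markers none passed and none had an unadjusted p under 0.05, with medians of 0.11, 0.14 and 0.07. Fat markers, of which 5 of 8 fell, had medians from -2.22 to -2.01, and erythroid markers, of which 2 of 5 fell, had medians from -1.79 to -0.86, where 0.328% of all genes passed. The 5 fat calls were lost without array 3, with limma adjusted p from 0.065 to 0.161, and those of Plin1 and Retn also without array 1, at 0.112 and 0.106. The erythroid calls, the closely related beta globin genes Hbb-bs and Hbb-bt, were lost without any 1 array, with limma adjusted p from 0.0577 to 0.234, and at 0.051 with equal spread. The part of these cell types in the Reg ratios was not tested.

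Of 9 measured genes reported as receptors or signalling partners of Reg proteins none passed, 2 above and 1 below 0 had an unadjusted p under 0.05, and the medians were -0.04, -0.10 and 0.05. Extl3, reported as a Reg receptor, had -0.33, -0.34 and -0.23, and Egfr had -0.18, -0.56 and -0.22. Of the 20 named genes that flank the chromosome 6 cluster, 10 on each side in the RefSeq gene table, none passed. An unadjusted p under 0.05 was found for 2 in each direction, and the medians were 0.02, -0.00 and -0.01. The means of these neighbours ran from -0.46 to 0.66. Reg3b and Reg3g, at the ends of the cluster, had means of 2.98 ± 2.88 and 3.38 ± 2.44, but were at -0.33 and 0.56 on array 2. Reg1 had a mean of 0.79, and those of Reg2, Reg3a and Reg3d, at 0.52, 0.22 and -0.07, lay within the range of the neighbours' means. For Reg2, Reg3a and Reg3d the mean combines ratios above 0 on arrays 1 and 3 with ratios below 0 on array 2. Their single ratios ran from -0.18 to 1.34, from -1.70 to 1.38 and from -1.07 to 0.45.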

How the data were processed

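Two-colour Agilent arrays of 3 Sox4 knockout mice (Cy5) against wild type (Cy3) were used. The deposited values are log2 ratios of 62976 features, from -7.44 to 5.62, with array medians of 0.007, 0.003 and 0.011. Log base 10 would exceed a scanner's range. No label or header names the authors' background correction, normalization or filters. No intensities were used, so features near background were kept, and the number of arrays limits precision.

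Features were named by the platform annotation updated through RefSeq (GRCm38.p6): of 31465 with 1 symbol, 29036 by accession, 2075 by symbol, 349 by synonym and 5 left as they were. Another 31511 were unnamed here. Features of a gene were averaged, giving 20738 genes. limma 3.58.1 (R 4.3.3) tested each mean ratio against 0 (2 residual and 3.51 prior degrees of freedom, two-sided, Benjamini-Hochberg over all genes), which leaves out the spread of wild type. The fit was checked on simulated data. Python 3.11.15 was used for tables and figures.

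The members and 19 gene lists were chosen with earlier results of these data known. Named genes were the members, Sox4, up to 4 genes with the smallest p in each list, and the 3 nearest genes of the 2 members with the largest ratios. Others are marked. Each list is described by its count and median. Alternatives were the median of features, median centring, equal spread, robust moderation, platform symbols and leaving out each array.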

Additional observations from a re-analysis of the deposited data

How the results depend on the processing

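Under median centring and equal spread, member means moved by at most 0.15, and list medians by at most 0.04. Leaving out 1 of 3 arrays cannot move a mean by 1 SD, so it says nothing of the stability of the member means, and those of Reg3a, Reg3d and Reg4 turned in sign. The family median of 0.52 ran from 0.12 to 1.07 when 1 array was left out, and from 0.52 to 0.55 otherwise. The count of 68 genes past the threshold ran from 4 to 66 with 1 array left out (10 without array 1, 66 without array 2, 4 without array 3), and from 50 to 73 otherwise. The 17 list genes past the threshold ran from 3 to 12 with 1 array left out (6 without array 1, 12 without array 2, 3 without array 3), and from 12 to 18 otherwise. The median over lists, -0.06, ran from -0.137 (without array 2) to 0.007 (without array 3). The cause of these shifts was not tested. Each member had 1 feature, so single features could not be compared. Fewer arrays leave fewer degrees of freedom. Each ratio already sets knockout against wild type on 1 array, and no further pairing was possible because all arrays form 1 group. Signal over background was not used here.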

Other observations

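Reg3b, Reg3g and Reg3a were among the 10 genes with the largest excess of arrays 1 and 3 over array 2, at 4.97, 4.23 and 2.88. The largest excess was that of the Paneth cell defensin gene Defa21 (6.30), with ratios of 1.62, -4.86 and 1.25, followed by the predicted gene Gm5067 (5.78), with 0.88, -5.03 and 0.62. At the other end the 5 largest departures were those of the phospholipase gene Pla2g4c (-4.66, 1.85 and -3.65), the acid phosphatase gene Acp4 (0.26, 5.05 and -0.45), the beta defensin gene Defb1 (-4.05, 1.62 and -1.68), the homeobox gene Hoxb13 (-2.27, 0.46 and -5.32) and Wdr72 (0.18, 3.96 and 0.06). Next in order were the angiogenin genes Ang4 and Ang2, with array 2 at 1.53 and 1.44, and the gasdermin gene Gsdmc3, with -3.52, 1.19 and -1.51. Genes of these families are related in sequence, and probe sequences were not analysed here. All were taken in the order of their departure on array 2, after their values were seen, and none of these differences was tested.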
